A study of Mus musculus with 6 samples.

Results

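The genes described here lie on the proximal part of mouse chromosome 17, between about 20 and 37 Mb (GRCm38), and are not class I or class II genes of the major histocompatibility complex (MHC). They are 47 of the 24404 genes in the count table. They were chosen by symbol, because small p values were seen in this stretch, MHC genes included. The comparison was of hearts lacking miR-204 with wild-type hearts. That same comparison is the only one in the study, so the values of the 47 genes are given below as a description, with no test, and nothing is supported with them. All 47 are annotated as protein coding, and 46 passed the filter on low counts. The exception was Kifc1, a minus-end kinesin of the mitotic spindle, with 2, 29 and 5 counts in the wild-type libraries and 13, 3 and 0 in those lacking miR-204.

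RNA was sequenced from mouse hearts taken 5 weeks after transaortic constriction (TAC), in which the aortic arch is tied narrower so that the left ventricle pumps against a higher pressure. The WT-TAC group had the wild-type genotype and the KO-TAC group the genotype miR-204-/-, with 3 libraries each. Both groups had the surgery, and no unoperated heart was analysed here. The labels give no strain, age, sex or way in which miR-204 was deleted, and do not say how many animals a sample came from, so p values measure only the spread between these samples, which may be technical.

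Proximal chromosome 17 is gene dense in the mouse. It carries the MHC, called H2 in this species, whose class I and class II genes encode proteins that present peptides to T cells. Around and among them stand genes of unrelated function, many active in nearly every tissue: regulators of the growth kinase mTOR, stress-activated kinases, splicing and ribosome factors, ion channels and a cluster of zinc finger genes. Neighbours in such a dense stretch often share a start region or overlap at their ends.

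Library totals ran from 6411538 to 8571737 counts. The table lists Mir204 at 0 counts in each library, so it gave no check of the genotypes. All 10 cardiomyocyte markers were detected, and their summed level was 140621 to 218159 CPM (counts per 1000000 library counts, with library sizes scaled by TMM) over the 6 libraries. Markers of other sources were lower: macrophage markers summed to 151 to 300.3 CPM, lymphocyte markers to at most 8.02 CPM, skeletal muscle markers to at most 6.76 CPM, liver markers to at most 1.57 CPM and lung markers to at most 16.02 CPM, in WT-TAC 3. Of 5 platelet and erythroid markers, Hba-a1 and Hbb-bs were at 0 in every library, and the list summed to 76.1 to 142 CPM in WT-TAC and 32.1 to 68.5 CPM in KO-TAC. KO-TAC 3 was lowest in 2 marker lists by a wide margin. The 7 atrial markers summed to 546 CPM there and to 3170 to 8839 CPM elsewhere. The 4 smooth muscle markers summed to 225, 265 and 202 CPM in WT-TAC and 179, 174 and 66.3 CPM in KO-TAC. Every KO-TAC library was thus below every WT-TAC library for smooth muscle. An unadjusted p under 0.05 in edgeR was found for 2 of the 4 smooth muscle, 1 of the 7 atrial and 3 of the 5 platelet and erythroid markers, beside 2.93% of all tested genes. The column of KO-TAC 3 was matched to its label by library index alone, and its header carries the leading number that the WT-TAC 3 column also carries. Deviations from the group means correlated at 0.257 between these libraries, the highest of the 9 pairs across groups. The labels do not say what the number stands for. Without KO-TAC 3 the fold change of 6 of the 46 tested genes turned sign (Traf7, Pdpk1, E4f1, Fahd1, Pkd1 and Itpr3), and these values are given with each gene, as are those of several others that it moved.

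None of the 46 tested genes was called changed at an adjusted p under 0.05 by edgeR, DESeq2 or limma-voom. In edgeR the adjusted p of each was 0.999, and over all tested genes 3 of 12487 were called, which is 0.024%. The called genes are BC002163 on chromosome 16 and, in the stretch itself, Cacna1h and H2-Ea-ps. At an unadjusted p under 0.05 there were 6 of the 46, the same number as in DESeq2 and in limma-voom. The share over all tested genes was 2.93%, and nothing is read from the difference, since this comparison chose the genes. Higher in KO-TAC were Zfp598, Vps52, Mapk8ip3 and Cdkn1a, beside 1.36% of all tested genes on that side. Lower were Zfp52 and Bak1, beside 1.57%. The 3 KO-TAC values lay all above or all below the 3 WT-TAC values for 7 of the 46, beside 7.98% of all tested genes: Zfp598, Vps52, Mapk8ip3 and Pim1 on the high side, and Zfp52, Flot1 and Mapk14 on the low side.

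The fold changes had both signs. Of the 46, 19 had a positive and 27 a negative log2 fold change of KO-TAC over WT-TAC, with a median of −0.04 beside 0.0012 over all tested genes. The median size of the log2 fold change, without its sign, was 0.20, beside 0.19 over all tested genes. Fold changes past 1.5 in either direction were found in 7 of the 46 and in 1456 of all 12487. They were well expressed for this table, with a median log2 CPM of 5.09 beside 4.31. The fitted fold changes are given below with their standard error (SE), and CPM values in the order of libraries 1, 2 and 3 of each group, with means ± SD over n = 3 libraries. In RNA of heart tissue, fewer cells of a type and less RNA per cell cannot be told apart.

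**Figure D1:**
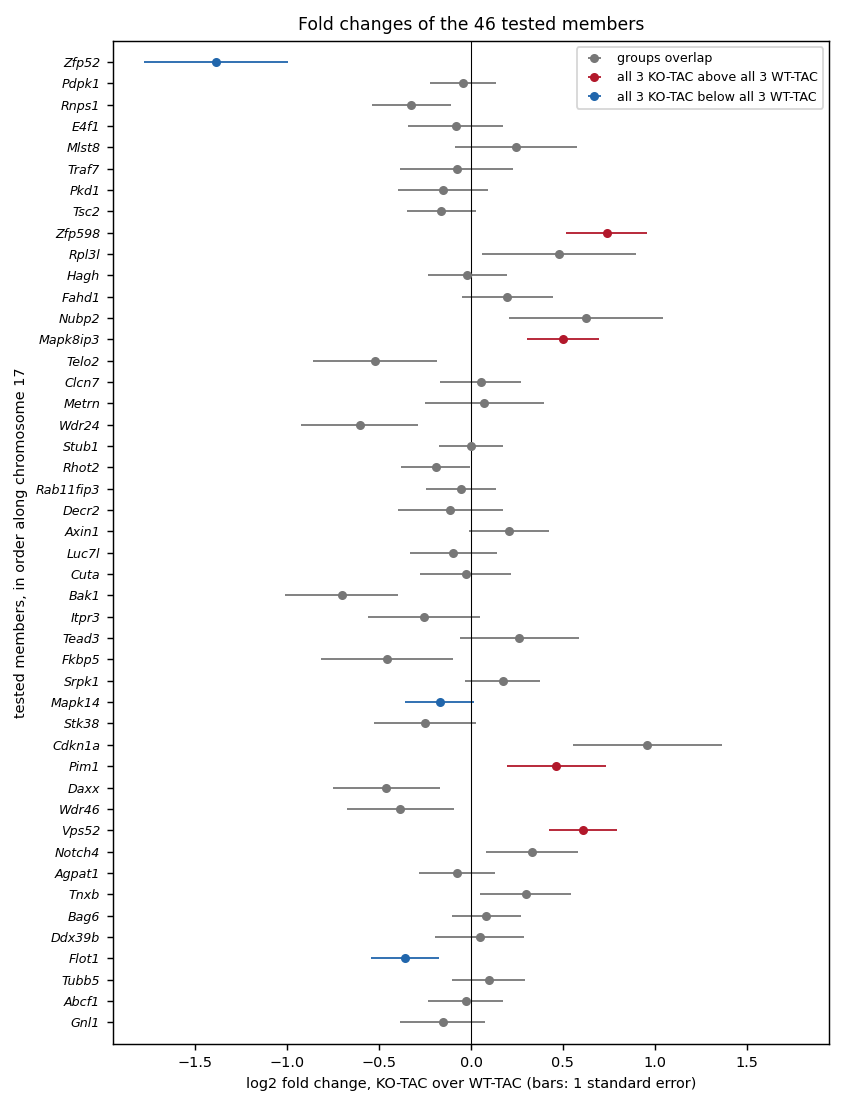
Log2 fold change of KO-TAC over WT-TAC (horizontal axis, bars 1 SE) for the 46 tested genes, in their order along chromosome 17; red and blue mark genes whose 3 KO-TAC values lie all above or all below the 3 WT-TAC values. Zfp52 stands farthest to the left at −1.39 and Cdkn1a farthest to the right at 0.96, and genes on either side of 0 are interspersed along the stretch.

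Zfp52, a KRAB-type zinc finger gene and the first of the 47 along the chromosome, had the largest fold change. Its level was 17.6, 10.8 and 23.1 CPM in WT-TAC and 3.51, 7.65 and 8.42 CPM in KO-TAC. Every KO-TAC library lay below every WT-TAC library, with WT-TAC 2 and KO-TAC 3 nearest to each other. The means were 17.2 ± 6.19 CPM in WT-TAC and 6.53 ± 2.64 CPM in KO-TAC, the fold was 0.382 and the log2 fold change was −1.39 ± 0.39, or −1.64 to −1.09 with 1 library left out. Over the 14 alternative analyses with edgeR, DESeq2 or limma-voom its adjusted p ran from 0.105 to 1.00. Zfp52 (ENSMUSG00000051341.6) spans 21535539 to 21562601 on the plus strand. The 250 bases before its start are shown because this gene differed most, with a GC box in capitals (RefSeq, GRCm38.p6, chr17:21535289-21535538, plus strand).
Zfp52: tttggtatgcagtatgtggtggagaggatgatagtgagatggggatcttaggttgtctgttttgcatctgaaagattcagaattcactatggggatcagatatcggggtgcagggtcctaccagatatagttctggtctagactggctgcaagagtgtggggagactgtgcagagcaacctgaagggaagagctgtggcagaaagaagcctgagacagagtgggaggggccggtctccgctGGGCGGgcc
It lies among other zinc finger genes. Apart from Zfp52 and Zfp598, a set chosen after values were seen held 18 tested genes with a Zfp symbol between 20 and 25 Mb, 7 higher and 11 lower in KO-TAC, with log2 fold changes from −0.91 to 0.43 and a median of −0.24. One of the 18 had an unadjusted p under 0.05, Zfp943, at −0.79 ± 0.35. Zinc finger genes of one cluster resemble each other in sequence, so reads can be split among them and the level of each is uncertain.

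Zfp598 is a ubiquitin ligase that senses collided ribosomes and starts ribosome-associated quality control. It was at 22.97, 22.95 and 18.1 CPM in WT-TAC and 36.5, 36.3 and 33.8 CPM in KO-TAC. All 3 KO-TAC libraries were higher than all 3 WT-TAC libraries, with a gap between the groups wider than the range within either. Means were 21.3 ± 2.82 CPM in WT-TAC and 35.6 ± 1.499 CPM in KO-TAC, a fold of 1.67 and a log2 fold change of 0.74 ± 0.22. Leaving out 1 library at a time gave 0.63 to 0.79. The gene (ENSMUSG00000041130.10) spans 24669687 to 24682016 on the plus strand. Its upstream sequence is shown because it holds 2 kinds of motif more than once, in capitals: the ETS core CGGAAG and the GC box GGGCGG, on either strand, with 1 pair overlapping (RefSeq, GRCm38.p6, chr17:24669437-24669686, plus strand).
Zfp598: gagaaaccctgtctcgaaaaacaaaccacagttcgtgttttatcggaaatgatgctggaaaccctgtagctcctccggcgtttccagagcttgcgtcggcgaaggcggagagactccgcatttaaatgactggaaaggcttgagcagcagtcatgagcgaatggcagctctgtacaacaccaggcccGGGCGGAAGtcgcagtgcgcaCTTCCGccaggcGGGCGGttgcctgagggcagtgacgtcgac
Of the other genes of ribosome-associated quality control and the BAG6 complex, a list of 14, 13 were tested. None had an unadjusted p under 0.05 in either direction, and their median log2 fold change was 0.07, beside 0.0012 over all genes. The smallest p in the list was that of Sgta, a co-chaperone that hands proteins to BAG6, at 0.26 ± 0.18.

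Vps52 encodes a subunit of the GARP complex, which tethers vesicles at the trans-Golgi network. Its values were 39.3, 44.2 and 40.8 CPM in WT-TAC and 62.5, 70.1 and 56.7 CPM in KO-TAC. The groups were separate, and the lowest KO-TAC value exceeded the highest WT-TAC value. The means were 41.4 ± 2.49 CPM in WT-TAC and 63.1 ± 6.702 CPM in KO-TAC, the fold 1.52 and the log2 fold change 0.61 ± 0.19, which ran 0.53 to 0.68 with 1 library left out. Vps52 (ENSMUSG00000024319.18) spans 33955812 to 33967035 on the plus strand, and 156 bases of its exons lie opposite exons of Rps18, a ribosomal protein gene. Rps18 was at −0.36 ± 0.23. Because the labels name a plain or a stranded kit without saying which a sample had, reads from such overlaps cannot be told apart.

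Mapk8ip3, also called JIP3, is a scaffold for JNK kinases and a cargo adaptor for kinesin. It stood at 113, 107 and 72.5 CPM in WT-TAC and 143, 137 and 134 CPM in KO-TAC. All KO-TAC values were above all WT-TAC values, and the KO-TAC libraries were closer to each other than the WT-TAC ones, of which the third was lowest. Means were 97.5 ± 21.9 CPM in WT-TAC and 138 ± 4.57 CPM in KO-TAC, with a fold of 1.42 and a log2 fold change of 0.50 ± 0.20. The latter was 0.33 to 0.62 with 1 library left out. The gene (ENSMUSG00000024163.17) spans 24892153 to 24936977 on the minus strand. Of its 14558 exon bases, 1419 lie opposite exons of Mrps34 and Nme3, and 1557 are shared with Eme2 on the same strand. Mrps34, a mitochondrial ribosome gene outside the 47, was at 31.5, 29.6 and 26.8 CPM in WT-TAC and 59.8, 50.1 and 32.5 CPM in KO-TAC, with a log2 fold change of 0.70 ± 0.24. Nme3 was at 0.58 ± 0.41 and Eme2 at 0.10 ± 0.31. The part that reads of these neighbours have in the Mapk8ip3 value was not tested. The sequence before its start is shown beside that of Zfp598, since both hold an ETS core and a GC box, and here also a CCAAT box (RefSeq, GRCm38.p6, chr17:24936978-24937227, minus strand, written in the direction of transcription).
Mapk8ip3: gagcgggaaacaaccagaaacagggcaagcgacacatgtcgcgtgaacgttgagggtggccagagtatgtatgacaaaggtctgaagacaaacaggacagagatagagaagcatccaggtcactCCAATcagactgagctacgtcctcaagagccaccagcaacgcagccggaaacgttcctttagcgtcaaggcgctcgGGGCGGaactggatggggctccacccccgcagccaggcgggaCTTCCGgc

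**Figure D2:**
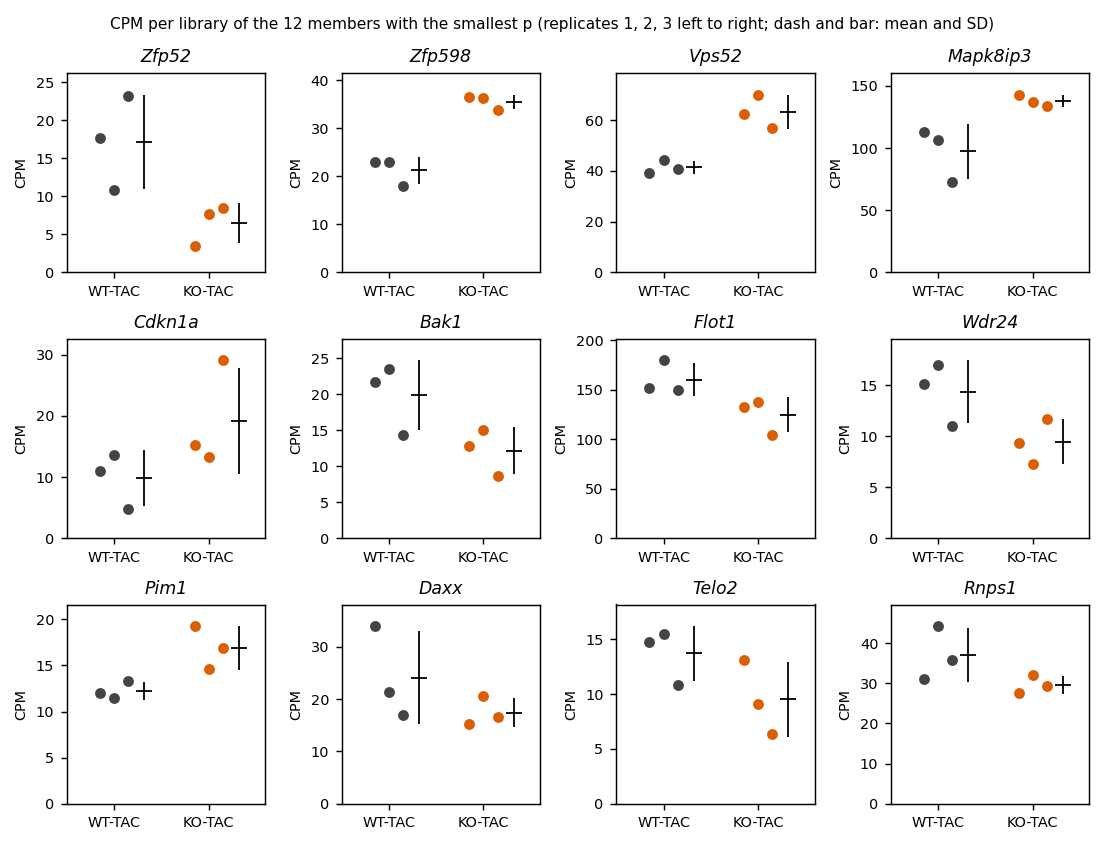
CPM (vertical axis, linear, from 0) of the 12 genes with the smallest unadjusted p among the 47, 1 point per library, with the mean and SD of each group of 3. Zfp598, Vps52, Mapk8ip3 and Pim1 have all KO-TAC points above the WT-TAC points, Zfp52 and Flot1 all below, and the points of the other 6 genes overlap.

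The other kinase genes followed no single direction. Mapk14, the p38-alpha kinase of stress and inflammatory signalling, was at 46.6, 47.7 and 50.8 CPM in WT-TAC and 46.03, 40.7 and 42.1 CPM in KO-TAC. Its groups did not overlap, but by a margin smaller than the range within either group, and the log2 fold change was −0.17 ± 0.19. Pim1, a survival kinase controlled mainly by its transcription, had 11.95, 11.5 and 13.3 CPM in WT-TAC and 19.3, 14.6 and 16.8 CPM in KO-TAC. Its KO-TAC values were all higher, with means of 12.2 ± 0.937 CPM in WT-TAC and 16.9 ± 2.35 CPM in KO-TAC and a log2 fold change of 0.46 ± 0.27. Stk38, a kinase of the NDR family, was at −0.25 ± 0.28, at 0.12 without WT-TAC 1, where it reached 82.3 CPM, and at −0.08 without KO-TAC 3. Traf7, a ubiquitin ligase that binds MEKK3, was at −0.08 ± 0.31, at 0.25 without WT-TAC 1 and at 0.14 without KO-TAC 3. In the list of other p38 and JNK genes 15 of 16 were tested, 0 had an unadjusted p under 0.05 on the high side and 1 on the low side, and the median was −0.15. That gene was Map2k6, which activates p38, at 4.88, 9.76 and 7.26 CPM in WT-TAC and 4.09, 2.67 and 2.66 CPM in KO-TAC (−1.22 ± 0.46).

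Of the 5 genes of the mTOR pathway, 4 had a negative fold change, and none had separate groups. Wdr24, a subunit of the GATOR2 complex that relays amino acid supply to mTOR complex 1, was at 15.1, 16.99 and 10.96 CPM in WT-TAC and 9.35, 7.29 and 11.7 CPM in KO-TAC. Its KO-TAC 3 value fell inside the WT-TAC range, and the log2 fold change was −0.61 ± 0.32. Telo2, which helps mature mTOR and related kinases, was at 14.8, 15.5 and 10.8 CPM in WT-TAC and 13.2, 9.11 and 6.35 CPM in KO-TAC (−0.52 ± 0.34). Its lowest value was in KO-TAC 3, without which the log2 fold change was −0.30, and its KO-TAC 1 value lay within the WT-TAC range. Tsc2, the tuberin subunit of the complex that restrains mTOR, was at 161 ± 16.9 CPM in WT-TAC and 144 ± 23.99 CPM in KO-TAC, a log2 fold change of −0.16 ± 0.19. Its partner Tsc1, not among the 47, was at −0.31 ± 0.20. Pdpk1, the kinase that activates AKT, was at −0.04 ± 0.18 (0.04 without KO-TAC 3), and Mlst8, a shared subunit of both mTOR complexes, at 0.24 ± 0.33. The other mTOR, TSC and GATOR genes, 29 of 29 tested, had 0 with an unadjusted p under 0.05 in either direction and a median of 0.05. The smallest p there was that of Nprl3, a GATOR1 subunit, at 0.68 ± 0.36.

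Cdkn1a encodes p21, an inhibitor of cyclin-dependent kinases induced by p53 and by stress. It was at 11.01, 13.7 and 4.79 CPM in WT-TAC and 15.2, 13.2 and 29.1 CPM in KO-TAC. The groups overlapped, with the lowest value in WT-TAC 3 and the highest in KO-TAC 3. Means were 9.82 ± 4.55 CPM in WT-TAC and 19.2 ± 8.65 CPM in KO-TAC and the log2 fold change was 0.96 ± 0.41, a fold of 1.94. Without KO-TAC 3 the log2 fold change was 0.53, and with each other library left out it was at most 1.28. The list of other p53 targets, which also holds Trp53, the gene of p53 itself, had 15 of 15 tested. It had 0 with an unadjusted p under 0.05 in either direction and a median of 0.11. Btg2, an antiproliferative gene, had the smallest p of that list, at −0.41 ± 0.24.

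Bak1, a pore-forming protein of the mitochondrial outer membrane in apoptosis, was at 21.7, 23.5 and 14.4 CPM in WT-TAC and 12.9, 15.1 and 8.57 CPM in KO-TAC. KO-TAC 2 reached into the WT-TAC range through WT-TAC 3, so the groups overlapped. The means were 19.9 ± 4.84 CPM in WT-TAC and 12.2 ± 3.303 CPM in KO-TAC, the fold 0.613 and the log2 fold change −0.70 ± 0.31, or −0.89 to −0.51 with 1 library left out. Over 614 exon bases Bak1 lies opposite Ggnbp1, which was at 0.40 ± 0.31. Bax, which forms pores together with Bak1, was at 0.30 ± 0.34. In the list of other intrinsic apoptosis genes 16 of 16 were tested, with 0 at an unadjusted p under 0.05 on the high side, 1 on the low side and a median of −0.05. The gene was Apaf1, the scaffold of the apoptosome, at 33.5, 24.8 and 19.9 CPM in WT-TAC and 16.2, 14.5 and 14.3 CPM in KO-TAC (−0.79 ± 0.26). Bag6, a chaperone for membrane proteins that also takes part in apoptosis, was at 182 ± 21.00 CPM in WT-TAC and 192 ± 31.4 CPM in KO-TAC, a log2 fold change of 0.08 ± 0.19.

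Fkbp5 encodes an HSP90 co-chaperone that is induced by glucocorticoids and feeds back on their receptor. Its values were 57.9, 21.8 and 30.3 CPM in WT-TAC and 21.8, 20.05 and 38.1 CPM in KO-TAC. WT-TAC 1 was the highest by far and the other values overlapped. The log2 fold change was −0.46 ± 0.36, 0.03 without WT-TAC 1 and −0.80 without KO-TAC 3. The list set beside it holds other glucocorticoid-induced genes and also Nr3c1, the gene of the receptor, and the co-chaperone gene Fkbp4. All 14 were tested, with 0 at an unadjusted p under 0.05 on the high side, 1 on the low side and a median of −0.28. That gene was Per1, also a circadian clock gene, at 113, 138 and 75.6 CPM in WT-TAC and 30.1, 87.2 and 32.5 CPM in KO-TAC (−1.12 ± 0.42).

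Among transcription and developmental regulators, Daxx, a chaperone that deposits histone H3.3, was at 33.98, 21.3 and 16.98 CPM in WT-TAC and 15.2, 20.5 and 16.5 CPM in KO-TAC. WT-TAC 1 was highest and the other 5 values overlapped. The log2 fold change was −0.46 ± 0.29, and −0.14 without WT-TAC 1. Notch4, a Notch receptor of endothelial cells, was at 49.9, 41.4 and 27.4 CPM in WT-TAC and 60.2, 51.3 and 37.98 CPM in KO-TAC, a log2 fold change of 0.33 ± 0.25. The 4 endothelial markers, of which all were detected and 1 had an unadjusted p under 0.05, summed to 633, 733 and 594 CPM in WT-TAC and 907, 883 and 703 CPM in KO-TAC. Their part in the Notch4 value was not tested. Axin1, the scaffold of the complex that degrades beta-catenin, was at 0.21 ± 0.22, and Tead3, a partner of YAP, at 0.26 ± 0.32 (0.47 without KO-TAC 3). E4f1, a zinc finger factor of cell survival, was at −0.08 ± 0.26, and at 0.01 without KO-TAC 3. Tead1, a paralog of Tead3, was at −0.05 ± 0.23. No gene of the Wnt, Hippo or Notch lists, with 14, 15 and 13 tested, had an unadjusted p under 0.05 in either direction, and their medians were −0.14, −0.01 and 0.06. The smallest p in each was that of Tcf7l2 at −0.43 ± 0.24, Stk38l at −0.41 ± 0.24 and Rbpj at −0.41 ± 0.25.

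Rpl3l, a ribosomal protein that replaces RPL3 in heart and skeletal muscle, had the highest level per length of the 47, at 89.8 RPKM (CPM per kilobase of exon) over the 6 libraries. Its values by library were 55.1, 145 and 169 CPM in WT-TAC and 132, 134 and 250 CPM in KO-TAC. WT-TAC 1 was lowest and KO-TAC 3 highest, and the groups overlapped. The log2 fold change was 0.48 ± 0.42, and 0.11 without KO-TAC 3. Its paralog Rpl3 was at 30.4 RPKM, with 85.3, 89.4 and 81.9 CPM in WT-TAC and 139, 125 and 58.1 CPM in KO-TAC and a log2 fold change of 0.33 ± 0.27. KO-TAC 3 was the highest library for Rpl3l and the lowest for Rpl3. Rpl3 has processed copies in the genome, so its level is uncertain.

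The other ribosome and translation genes had small differences. Abcf1, a translation initiation factor of the ABC family, was at −0.03 ± 0.20. Gnl1, a GTPase and the last of the 47 along the chromosome, was at −0.15 ± 0.23, and −0.40 without KO-TAC 2. Wdr46, a scaffold of the small ribosomal subunit processome, was at 17.3, 20.8 and 12.7 CPM in WT-TAC and 13.2, 14.9 and 10.8 CPM in KO-TAC, with overlapping groups and a log2 fold change of −0.39 ± 0.29. It starts head to head with Pfdn6, a prefoldin subunit outside the 47, with RefSeq starts at 33940723 and 33940343. Pfdn6 was at 11.5, 19.4 and 22.3 CPM in WT-TAC and 30.2, 30.4 and 23.1 CPM in KO-TAC, with all KO-TAC values above all WT-TAC values and a log2 fold change of 0.65 ± 0.28, so the neighbours had opposite signs. Part of the stretch between them is shown for this reason, with a CCAAT box on the other strand in capitals (RefSeq, GRCm38.p6, chr17:33940473-33940659, plus strand).
Wdr46: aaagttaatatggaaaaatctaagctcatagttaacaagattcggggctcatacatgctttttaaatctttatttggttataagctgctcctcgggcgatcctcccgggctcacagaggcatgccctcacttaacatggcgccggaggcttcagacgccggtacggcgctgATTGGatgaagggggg

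Splicing genes had overlapping groups and differed in both directions. Rnps1, which joins splicing to the exon junction complex, was at 31.1, 44.3 and 35.7 CPM in WT-TAC and 27.6, 31.95 and 29.3 CPM in KO-TAC (−0.33 ± 0.22), with KO-TAC 2 just inside the WT-TAC range. Srpk1, a kinase of SR splicing factors, was at 0.17 ± 0.20, Luc7l, a U1 snRNP-associated protein, at −0.10 ± 0.24, and Ddx39b, a helicase of splicing and mRNA export, at 0.05 ± 0.24. Of 18 splicing and exon junction partners 17 were tested, with 0 at an unadjusted p under 0.05 on the high side, 1 on the low side and a median of −0.12. This was Srpk2, the paralog of Srpk1, at −0.58 ± 0.21.

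The 7 mitochondrial and metabolic genes, 3 with a positive and 4 with a negative fold change, had overlapping groups throughout. Nubp2, an iron-sulfur cluster assembly factor, was low in all libraries, at 6.61, 3.67 and 4.52 CPM in WT-TAC and 9.35, 7.78 and 5.62 CPM in KO-TAC, and had the largest difference of the 7 at 0.63 ± 0.42. Rhot2, also called Miro2, which couples mitochondria to motor proteins, was at −0.19 ± 0.19. Fahd1, a mitochondrial oxaloacetate decarboxylase, was at 35.4, 24.7 and 28.4 CPM in WT-TAC and 30.2, 27.1 and 44.03 CPM in KO-TAC. KO-TAC 3 was its highest library, and the log2 fold change of 0.20 ± 0.25 became −0.04 without it. Decr2, a peroxisomal reductase of fatty acid oxidation, was at −0.11 ± 0.29, Agpat1, which makes phosphatidic acid, at −0.08 ± 0.21, Metrn, a secreted factor, at 0.07 ± 0.32, and Hagh, the glyoxalase that follows Glo1, at −0.02 ± 0.22. In a list of other genes of mitochondrial transport, fusion and mitophagy 8 of 9 symbols were tested. The symbol not tested, Miro1, is another name of Rhot1, which was tested. None had an unadjusted p under 0.05 in either direction, and the median was −0.13. Pink1, a kinase of mitophagy, had the smallest p, at −0.26 ± 0.23.

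Channel and receptor genes had overlapping groups. Itpr3, an inositol trisphosphate receptor that releases calcium from the endoplasmic reticulum, was at 26.3, 33.1 and 31.2 CPM in WT-TAC and 31.6, 31.2 and 13.00 CPM in KO-TAC. KO-TAC 3 was well under the other 5 libraries, which overlapped, so the log2 fold change of −0.26 ± 0.31 became 0.05 without it. The paralogs Itpr1 and Itpr2 were at 0.07 ± 0.19 and 0.01 ± 0.20. Pkd1, which encodes polycystin-1, a mechanosensitive receptor, was at 175 ± 45.4 CPM in WT-TAC and 157 ± 44.9 CPM in KO-TAC (−0.15 ± 0.24), its sign resting on single libraries: the log2 fold change was 0.05 without KO-TAC 3 and 0.07 without WT-TAC 1. Its partner Pkd2 was at −0.07 ± 0.22. Pkd1 and Tsc2 lie tail to tail and share 693 exon bases on opposite strands. Clcn7, a lysosomal chloride exchanger, was at 0.05 ± 0.22.

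In the trafficking, cytoskeleton and matrix group, Flot1, a membrane microdomain scaffold, was at 151, 180 and 150 CPM in WT-TAC and 133, 137 and 104 CPM in KO-TAC. All KO-TAC values were below all WT-TAC values, with means of 160 ± 16.9 CPM in WT-TAC and 125 ± 18.1 CPM in KO-TAC and a log2 fold change of −0.36 ± 0.18, a fold of 0.779. Tnxb, the matrix protein tenascin-X, was at 131, 166 and 156 CPM in WT-TAC and 234, 212 and 111 CPM in KO-TAC: 2 of the 3 KO-TAC libraries were above all WT-TAC libraries and KO-TAC 3 was below them. The log2 fold change of 0.30 ± 0.25 became 0.56 without KO-TAC 3. The 5 fibroblast markers, none with an unadjusted p under 0.05, summed to 848 to 1377 CPM in WT-TAC and 667 to 1165 CPM in KO-TAC, with KO-TAC 3 lowest. Their part in the Tnxb value was not tested. Tubb5, a beta-tubulin, was at 0.10 ± 0.20 (0.26 without KO-TAC 3), Rab11fip3, an effector of recycling endosomes, at −0.06 ± 0.19, and Cuta, a small protein linked to acetylcholinesterase, at −0.03 ± 0.25. Stub1, which encodes the ubiquitin ligase CHIP, had the smallest fold change of the 46, with 76.1 ± 5.74 CPM in WT-TAC and 76.03 ± 6.595 CPM in KO-TAC and a log2 fold change of −0.00061. A further list of paralogs and direct partners of the 47 leaves out some that are in other lists, such as Srpk2 and Map2k6 given above. Of its 31 genes 29 were tested, with 0 at an unadjusted p under 0.05 in either direction and a median of 0.06. Tubb4b, another beta-tubulin, had the smallest p, at 0.37 ± 0.19.

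Over the 12 lists together, 195 of 201 symbols, Miro1 and Rhot1 counted apart, were tested. None was called changed by edgeR, DESeq2 or limma-voom. At an unadjusted p under 0.05 there were 4 in edgeR, 4 in DESeq2 and 5 in limma-voom. The 4 in edgeR were all lower in KO-TAC, 2.05% of the list genes beside 2.93% of all tested genes, and the median was −0.0038. Of the fixed paralogs not yet given, Mapk11, a p38 paralog of Mapk14, was at −0.42 ± 0.85.

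KO-TAC 3 was the lowest of the 6 libraries for 15 of the 46 genes (32.6%), beside 20.3% of all tested genes. KO-TAC 1 was the highest for 13 (28.3%), beside 17.3%. Relative to each gene's mean over the libraries, the median of the 46 was −0.14 on the log2 scale in KO-TAC 3, beside −0.0051 for all tested genes. Within a group the median SD of log2 CPM of the 46 was 0.22 in WT-TAC and 0.24 in KO-TAC, beside 0.32 and 0.31 for all tested genes. The 46 also had a higher median log2 CPM, 5.09 beside 4.31, and these SD values were not matched for level.

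Levels per length spanned a wide range. After Rpl3l came Flot1 at 49.2, Abcf1 at 38.2, Bag6 at 30.1, Stub1 at 29.7 and Tubb5 at 28.5 RPKM. At the other end were Mlst8 at 2.27, Tead3 at 1.64, Telo2 at 1.45 and Kifc1 at 0.322 RPKM.

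**Figure D3:**
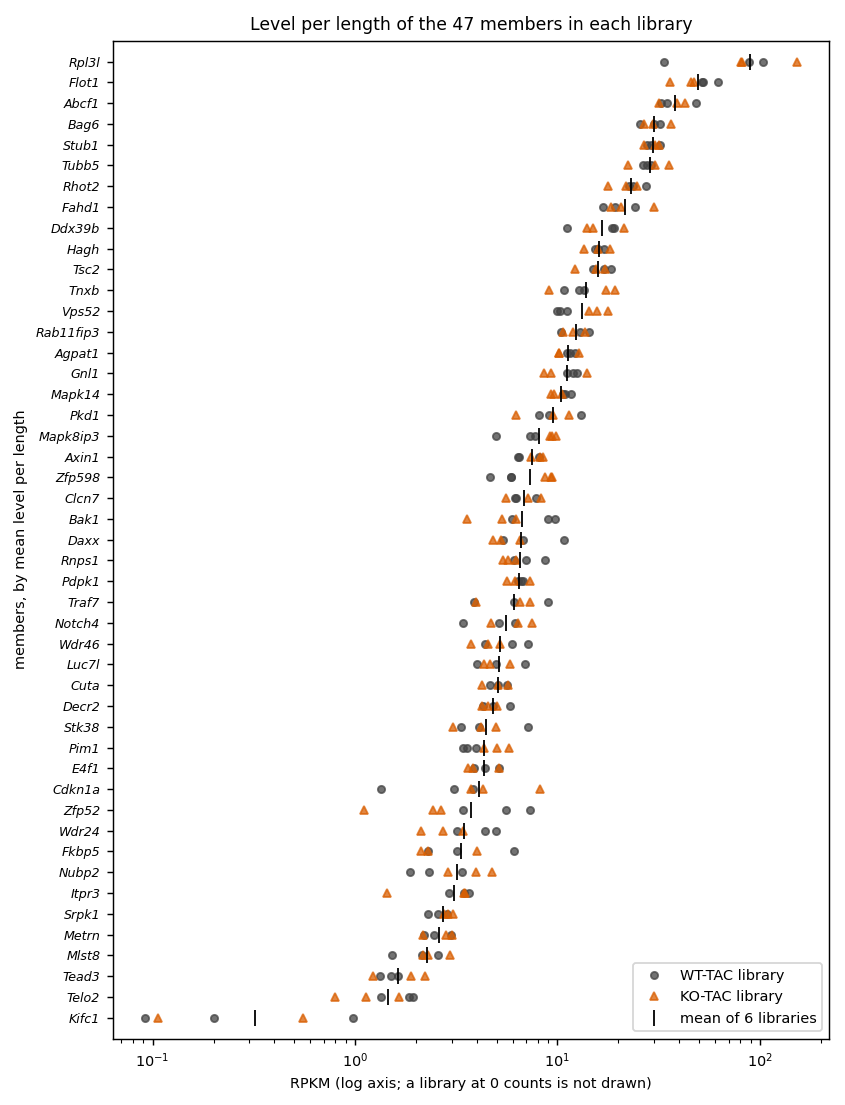
Level of the 47 genes in each library per exon length (RPKM, horizontal logarithmic axis), ordered by their mean (tick), with a circle per WT-TAC and a triangle per KO-TAC library. Rpl3l leads at a mean of 89.8 RPKM and Kifc1 is last at 0.322 RPKM, and for most genes the WT-TAC and KO-TAC points overlap.

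The label places the genes outside the MHC, which holds for class I and class II genes but not for position. Between the first H2 gene, H2-K2, which starts at 33974659, and the last, H2-M2, at 37483552, lie 9 of the 47: Notch4, Agpat1, Tnxb, Bag6, Ddx39b, Flot1, Tubb5, Abcf1 and Gnl1. The other 38 come before, the nearest being Vps52, which ends at 33967035, close to H2-K2. Among tested genes of the stretch, 7 of 14 H2 genes had an unadjusted p under 0.05, with a median log2 fold change of −0.59. Of the 237 that are neither H2 genes nor among the 47, 10 did (4.22%), with a median of 0.02. Of all 283 tested genes of the stretch without H2 genes, which include the 46, it was 16. On the rest of chromosome 17 it was 17 of 295 (5.76%). These shares are set beside each other with no test, and the 6 of 46 (13.0%) in the genes described here depends on the way they were picked, from this same comparison. The groups did not overlap for 8.86% of the 237 and 9.83% of the 295, beside 15.2% of the 46.

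The 10 neighbours with an unadjusted p under 0.05 include Mrps34, Pfdn6 and Zfp943, given above. Zfp81, another zinc finger gene, was at 1.00 ± 0.43, Atp6v1g2, a proton pump subunit, at −1.41 ± 0.62, and Ier3, an immediate early gene, at −1.06 ± 0.41. The other 4 were Cacna1h, a T-type calcium channel at −3.23 ± 0.40, Glo1, Btbd9 and Dnah8. By position, the 46 tested genes with an unadjusted p under 0.05 were 3 of 14 between 20 and 25 Mb, 2 of 20 between 25 and 30 Mb, 1 of 6 between 30 and 35 Mb and 0 of 6 beyond. Other tested genes of the same bins, H2 genes left out, had 2 of 57, 1 of 71, 5 of 77 and 2 of 32, beside 2.93% of all tested genes.

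**Figure D4:**
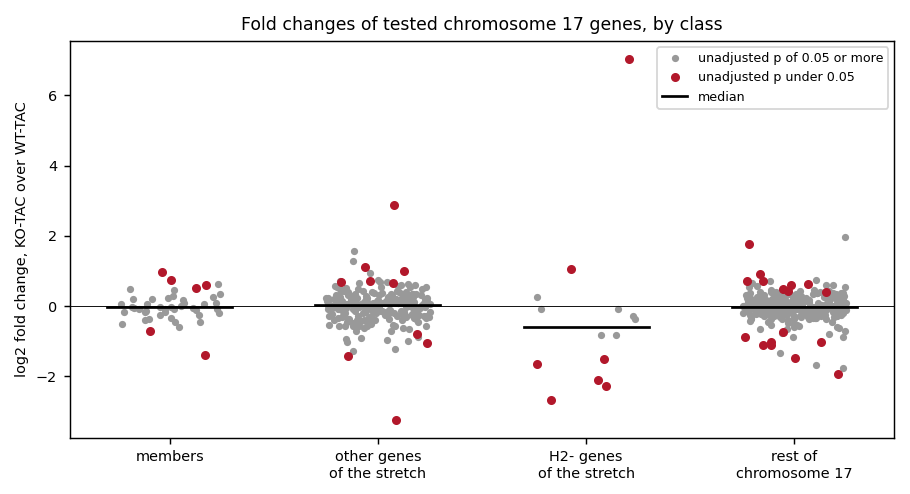
Log2 fold change of KO-TAC over WT-TAC (vertical axis) of each tested chromosome 17 gene, 1 point per gene, for the genes described here (members), other genes of the stretch, H2 genes of the stretch and the rest of the chromosome, with red for an unadjusted p under 0.05 and a line at the median. The medians are −0.04, 0.02, −0.59 and −0.01, and the 6 red points among the members, whose number depends on the choice of genes from this same comparison, lie on both sides of 0.

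The tested protein-coding genes nearest the edges of the stretch had fold changes smaller than their SE. Spaca6, the last such gene before 20 Mb, was at 0.04 ± 0.40 and Ppp2r1a, the first after it, at −0.05 ± 0.19. Znrd1as, the last before 37 Mb, was at 0.16 ± 0.32 and Zfp57, the first beyond, at −0.28 ± 0.63.

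Exons of 18 of the 47 overlap a gene on the other strand, exons of 8 overlap one on the same strand, and 20 have either. By GENCODE starts, divergent starts within 1000 bases were found for 5: Tsc2 with Nthl1, E4f1 with Pgp, Nubp2 with Spsb3, Wdr46 with Pfdn6 and Agpat1 with Rnf5. The pairs of E4f1 and Agpat1 rest on GENCODE starts, from which their RefSeq starts lie 14921 and 1599 bases away. By the RefSeq starts used for sequences, Hagh and Fahd1 diverge. Their upstream windows overlap, at 24850240 to 24850489 on the plus strand and 24850303 to 24850552 on the minus strand. Motifs in the shared part are counted for both genes below. Stub1 shares 1084 exon bases with Jmjd8 on the other strand, and Jmjd8 was at 0.32 ± 0.26.

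Of the 47, 42 had an upstream sequence of 250 bases in the RefSeq table. Letters were searched on both strands, and their shares are set beside those of 9419 tested genes with such a sequence. The ETS core CGGAAG was in 31.0% beside 25.4%, including Zfp598, Vps52, Mapk8ip3 and Wdr46, the last outside the stretch printed above. The GC box GGGCGG was in 61.9% beside 60.2%, and the CCAAT box in 40.5% beside 35.8%. The E-box CACGTG was in 8 sequences, 19.0% beside 8.56%: those of Abcf1, Clcn7, Cuta, Fkbp5, Itpr3, Stub1, Tubb5 and Wdr46. TATAAA was in 1, that of Rab11fip3, 2.38% beside 6.33%. TGTTCT, a core of the glucocorticoid response element, was in 9.52% beside 10.2%, and TGACGT, a core of the cAMP response element, in 9.52% beside 10.4%. Over all 17042 sequences of the table the shares were 17.4% for the ETS core, 43.4% for the GC box, 35.9% for the CCAAT box, 6.84% for the E-box, 11.9% for TATAAA, 14.1% for TGTTCT and 7.8% for TGACGT. Median GC content was 59.0% beside 60.0%. A match of letters is a description and not a bound site, and the E-box and ETS genes include values on both sides of 0.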

How the data were processed

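The authors deposited 1 table of raw read counts per gene symbol, with no normalization. Named in the submitters' processing notes, without the role of each, are HISAT2 2.1.0, Subread, FastQC and edgeR, and the builds GRCm38 and mm10. Strand setting and annotation are not given in the sources used here. Per the labels' protocols, libraries came from a plain or a stranded TruSeq kit. The table has 24404 genes, 6680 of them at 0 in every library.

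For KO-TAC 3, the leading number in the column header differs from that in the label and is the one in the header of WT-TAC 3. The column was matched through the library index, unique among the samples.

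Counts were tested with edgeR 4.0.16 (R 4.3.3): filterByExpr with a minimum count of 10, TMM scaling, a robust quasi-likelihood fit without covariates, and Benjamini-Hochberg adjustment over 12487 tested genes at 0.05. SE values are the size of the log2 fold change divided by the root of the F statistic. The common biological coefficient of variation was 0.286. The test was also run on simulated counts with a common spread for all genes, and nothing about the genes described here is drawn from that run. Alternatives were other scalings (RLE, upper-quartile, none), other filters (none, or a minimum count of 30), DESeq2 1.42.0, limma-voom (limma 3.58.1), the replicate number as a block, and each library left out.

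Positions and exon lengths are from GENCODE M21 (GRCm38), with 23309 symbols matched, 667 by an older symbol and 428 unmatched. All 47 genes matched. Upstream sequences are from RefSeq (GRCm38.p6), at the start nearest the GENCODE start. For 4 genes that start lay over 1000 bases away: Fkbp5 (31378), E4f1 (14921), Hagh (10347) and Agpat1 (1599).

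The genes, their pathway lists and markers were chosen with earlier results of these data known. Given by library are the 12 genes of smallest p, with others where a library decided the value. Also named are every other of the 47, the gene of smallest p in each list, 8 paralogs and the genes at the edges of the stretch. Overlapping neighbours, the other genes of the stretch with small p and the zinc finger set were picked after their values were seen.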

Additional observations from a re-analysis of the deposited data

How the results depend on the processing

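The number of genes called over the whole table was 3 as reported and under RLE, upper-quartile or no scaling and the stricter filter. It was 21 with no filter, 17 in DESeq2, 0 in limma-voom (376 at an unadjusted p under 0.05) and 0 to 7 with 1 library left out. Leaving out WT-TAC 1 gave 0 (437 at an unadjusted p under 0.05), leaving out KO-TAC 2 gave 7 and leaving out KO-TAC 3 gave 6. None of the 47 genes was called in any of the 14 alternatives. With the replicate number as a block 6 genes were called. The numbers were not taken as pairing the samples, since the deviations of same-numbered libraries correlated at 0.135, 0.011 and 0.257 over 12487 genes, and KO-TAC 2 correlated best with WT-TAC 1. With 1 library left out, the described genes at an unadjusted p under 0.05 numbered 2 to 4 on the high side, 1 to 4 on the low side, and those with separate groups 9 to 16, a count that fewer libraries raise by construction. The fewest on the high side came without WT-TAC 3, where the low side had the most, and the low side had 1 without WT-TAC 1, WT-TAC 2 or KO-TAC 1. The median log2 fold change of the described genes was −0.099 to 0.031 with 1 library left out. Of the 46 tested genes, 26 kept the sign of the fold change in all alternatives and 20 changed it with at least 1 library left out, Stub1 also under other settings. Signs also changed with 1 library left out for 8 other genes whose fold change is given: Pkd2 ran from −0.201 to 0.233, Mapk11 from −0.917 to 0.128, Tead1 from −0.322 to 0.122, Itpr1 from −0.0581 to 0.147, Itpr2 from −0.0735 to 0.148, Eme2 from −0.172 to 0.233, Spaca6 from −0.307 to 0.258 and Ppp2r1a from −0.127 to 0.0939. Itpr2 was also at −0.014 with no scaling, −7.13e-05 in limma-voom and −0.00237 with the replicate block. The cause of these changes was not tested. Kifc1 did not pass the filter as reported, and its log2 fold change was −1.42 to −0.40 in the fits with 1 library left out that kept it. With 3 libraries a group and totals of 6411538 to 8571737 counts, values of such low genes are uncertain. The size of difference that could be detected in them was not tested.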
